A study of Mus musculus with 6 samples.

Results

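The genes of the proteasome were described in RNA from mouse kidney cells. The members were the rows of the deposited table whose symbol starts with Psm, a letter from a to g and a number, without processed pseudogenes. The rule uses no measured value, but earlier results of these data were known when it was chosen. The rule took 47 of the 12125 genes listed. Of these 47, 45 have a role at the proteasome as subunits, activators, an inhibitor or assembly chaperones. The other two are *Psmc3ip*, a cofactor of meiotic recombination, and *Psme3ip1*, which encodes a protein that binds the activator PA28γ. They are kept in all counts and are described last.

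Mice of the genotypes Trf1+/+ and Trf1flox/flox were compared, 3 of each, with 1 library of 500 sorted kidney cells per mouse. *Terf1* encodes TRF1, a protein of the shelterin complex that covers telomeres. All mice of both groups carried Cre+/t, a tamoxifen-dependent Cre recombinase (CreERT2) driven by the *Col1a2* promoter, and KFP+/t, a Katushka fluorescent protein that Cre switches on. All received tamoxifen 3 times a week for 8 weeks from an age of 6 to 8 weeks, males and females were used, and the sex of each mouse is not given in the sources used here. The cells were labelled as fibroblasts and were sorted after staining for CD29, an integrin, and for KFP. Cre acts only in cells that use the *Col1a2* promoter, and the same Cre switches on KFP. The study's supplement names sorted CD29+, CD29+ KFP+ and KFP+ cells, and its text does not say which gave these libraries. Whether a Trf1flox/flox library also held RNA of cells that kept *Terf1* was not tested. Libraries are numbered 1 to 3 within a genotype, and values are given in that order.

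The libraries held between 10263382 and 12248797 reads on the listed genes, and 1 read was worth 0.689 to 1.09 normalized counts. Normalized counts are reads divided by 1 size factor per library. The library labelled Trf1+/+ replicate 1 stood apart, with a median over all listed genes of 13.4 normalized counts against 118 to 148 in the other 5. *Terf1* had 0.891, 253 and 235 across the Trf1+/+ libraries against 110.0, 7.65 and 12.4 across the Trf1flox/flox libraries. The value in the library labelled Trf1+/+ replicate 1 went against its label, and Trf1flox/flox replicate 1 lay between the other libraries of the 2 genotypes. In the library labelled Trf1+/+ replicate 1, 27.1% of genes with a mean of at least 100 in the other 5 were at 3 reads or fewer. Its low *Terf1* value alone therefore does not tell its genotype. Of 10 fibroblast markers 3 were listed, with summed levels of 1.66 to 105 in Trf1+/+ and 15.5 to 102 in Trf1flox/flox libraries, and *Col1a2*, whose promoter drives Cre, had at most 1.78 in any library. All 8 markers of the proximal tubule, the epithelium that reabsorbs most of the kidney filtrate, were listed, with sums of 30658 to 154069 and 35559 to 153241. The label fibroblasts is therefore not borne out by these markers, and the cells are called sorted kidney cells. In such bulk samples fewer cells of a type and less RNA per cell cannot be told apart.

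The 26S proteasome is the protease that degrades proteins tagged with ubiquitin. Its 20S core particle is a barrel of outer alpha rings, which gate the entry, and inner beta rings, which hold the proteolytic sites of *Psmb6* (beta1, caspase-like), *Psmb7* (beta2, trypsin-like) and *Psmb5* (beta5, chymotrypsin-like). The 19S regulatory particle caps the barrel: its base holds a ring of ATPases (*Psmc* genes) that unfold substrates, and its lid holds the deubiquitinase *Psmd14*. In cells that receive interferon-γ, and in many leukocytes, *Psmb9*, *Psmb10* and *Psmb8* take the places of *Psmb6*, *Psmb7* and *Psmb5* to form the immunoproteasome, which favours peptides for class I antigen presentation. The transcription factor encoded by *Nfe2l1* raises the subunit genes together when proteasome activity is short, through antioxidant response elements (ARE). Proximal tubule cells take up and degrade large amounts of filtered protein, mainly in lysosomes, and use the proteasome for their own proteins as other cells do.

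Promoter windows from RefSeq (GRCm38.p6), 250 bases before to 50 after an annotated start, matched 40 of the 47 members. The windows below are printed 5′ to 3′ on the strand of the gene. *Psmb5* and *Psmb8* are shown because they compete for the beta5 place and lie far apart in level per kilobase, *Psmb6* because it was the member with the highest level, and *Psmd6* and *Psme4* because they had the smallest unadjusted p-values among the subunits and activators. Capitals mark every match to the motifs searched.
Psmb5 (chr14:54617946-54618245, minus strand): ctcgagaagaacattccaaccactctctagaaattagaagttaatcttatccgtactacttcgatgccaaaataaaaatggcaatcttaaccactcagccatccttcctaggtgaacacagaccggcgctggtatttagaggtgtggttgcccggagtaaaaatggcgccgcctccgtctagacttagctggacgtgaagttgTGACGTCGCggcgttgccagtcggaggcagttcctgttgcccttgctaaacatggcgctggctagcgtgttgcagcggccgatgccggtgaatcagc
Psmb8 (chr17:34197945-34198244, plus strand): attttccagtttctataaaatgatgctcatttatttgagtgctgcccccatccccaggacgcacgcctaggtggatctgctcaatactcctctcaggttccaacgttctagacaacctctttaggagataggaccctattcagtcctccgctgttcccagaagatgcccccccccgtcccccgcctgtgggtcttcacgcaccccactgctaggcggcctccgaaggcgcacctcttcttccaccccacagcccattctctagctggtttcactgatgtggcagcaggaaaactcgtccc
Psmb6 (chr11:70525107-70525406, plus strand): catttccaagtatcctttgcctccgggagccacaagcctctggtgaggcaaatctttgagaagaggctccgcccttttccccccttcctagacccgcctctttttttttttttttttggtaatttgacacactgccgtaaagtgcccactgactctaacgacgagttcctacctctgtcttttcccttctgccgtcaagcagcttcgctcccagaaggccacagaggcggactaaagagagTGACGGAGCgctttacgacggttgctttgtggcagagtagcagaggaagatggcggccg
Psmd6 (chr14:14120896-14121195, minus strand): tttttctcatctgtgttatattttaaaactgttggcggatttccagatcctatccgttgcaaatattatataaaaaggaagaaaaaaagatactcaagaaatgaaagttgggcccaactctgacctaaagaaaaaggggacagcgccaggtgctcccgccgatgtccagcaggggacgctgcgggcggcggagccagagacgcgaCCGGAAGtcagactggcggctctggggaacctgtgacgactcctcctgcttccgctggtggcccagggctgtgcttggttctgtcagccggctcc
Psme4 (chr11:30771525-30771824, plus strand): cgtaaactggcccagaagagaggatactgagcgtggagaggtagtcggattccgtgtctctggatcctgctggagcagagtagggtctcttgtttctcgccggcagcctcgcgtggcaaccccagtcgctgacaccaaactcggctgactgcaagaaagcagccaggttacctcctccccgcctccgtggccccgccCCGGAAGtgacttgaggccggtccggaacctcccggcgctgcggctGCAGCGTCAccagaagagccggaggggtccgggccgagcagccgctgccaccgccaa

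Motifs were searched on both strands, and none of them contains another. The ARE was searched as TGACNNNGC, the site of ETS factors as CCGGAAG, the CCAAT box as CCAAT and the core of the interferon-stimulated response element (ISRE) as GAAANNGAA. Positions are counted from the annotated start, the first transcribed base being 0. *Psmb5* held an ARE from -47 and *Psmb6* one from -9, *Psmd6* an ETS site from -45, and *Psme4* an ETS site from -53 with an ARE on the opposite strand from -7. The window of *Psmb8* held 0 matches to these motifs. Over the 41 windows of the 38 members with a role at the proteasome that have one, 6 windows (14.6%) held an ARE, against 12.4% of all 32851 windows and 14.6% of the 11689 windows of listed genes. The ETS site was in 15 windows (36.6%), against 8.86% of all windows and 17.9% of those of listed genes. The ISRE core was in 7 (17.1% against 8.56% of all windows) and the CCAAT box in 12 (29.3% against 37.4%). A match describes the letters of the window and is not evidence of binding.

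The first question was how much proteasome RNA the sorted cells held. The median over the 47 members was 1357, 863 and 751 normalized counts across the Trf1+/+ libraries and 749, 989 and 868 across the Trf1flox/flox libraries, between the 86.7th and the 89.7th percentile of all listed genes in each library. The members together took between 0.365% and 0.790% of the normalized counts of a library, with the highest share in the library labelled Trf1+/+ replicate 1. For 28 of the 47 members this library was the highest of the 6, as it was for 27.4% of all tested genes. It was the lowest for 7 members and for 38.2% of all tested genes. Of the genes with a mean of at least 100 in the other 5 libraries, 12.9% were at 0 and 27.1% at 3 reads or fewer in that library. Of the 45 members among them 0 were at 0 and 3 at 3 reads or fewer, namely *Psmd13*, *Psmd9* and *Psmg2*, and in each of the other 5 libraries 0 or 1 such members were at 0. The medians of the genotypes overlapped, and in the library that stood apart most members were at their highest while the typical gene was low. The shares over all genes were not matched to the high level of the members, and the part of level was not tested.

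**Figure D1:**
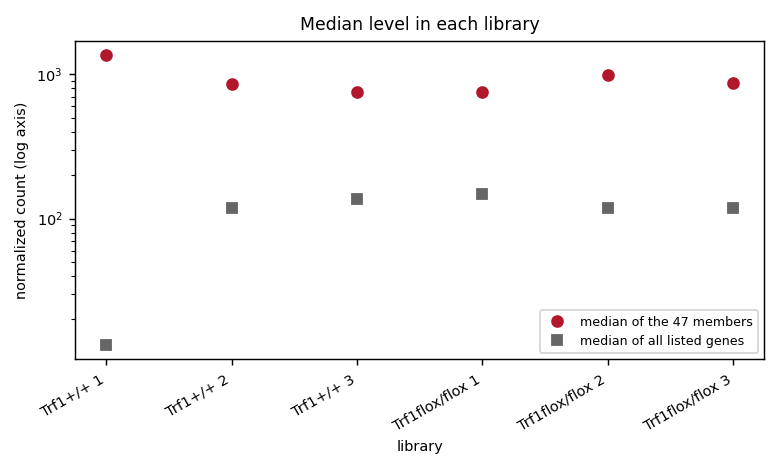
Median normalized count (log axis) of the 47 proteasome genes (circles) and of all 12125 listed genes (squares) in each of the 6 libraries. The members stay between 749 and 1357, while the median of all genes is 13.4 in the library labelled Trf1+/+ replicate 1 and 118 to 148 in the others.

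The second question was whether any member differed between the genotypes. All 47 members passed the filter on low values (10 or more normalized counts in 3 or more libraries), which left 9966 genes. limma on log2(normalized count + 1) called 0 members at an adjusted p under 0.05 (0.0% of all tested genes were called), and edgeR and DESeq2 on the recovered reads also called 0 members (background 0.0% and 0.582%). DESeq2 gave no adjusted p for *Psmb8* and *Psmb10*, so it could not call them. At an unadjusted p under 0.05 limma placed 0 members, edgeR 0 and DESeq2 0. The limma background at that threshold was 2.1% of tested genes higher and 1.03% lower in Trf1flox/flox libraries, and in either direction it was 1.97% with edgeR and 4.11% with DESeq2. The log2 fold change was positive for 25 members and negative for 22, with a median of 0.03 against 0.20 over all tested genes. The median of all genes moved to 0.35 with upper quartile scaling and to -0.04 with edgeR and -0.05 with DESeq2, and that of the members to 0.21, -0.09 and -0.13. Both signs thus turned with edgeR and DESeq2 and not with upper quartile scaling, and the cause was not tested. The median of the members stayed below that of all genes under each of these. The smallest adjusted p of a member was 0.970 in limma. Without the library labelled Trf1+/+ replicate 1, the median of the members was 0.20 and that of all genes -0.03.

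**Figure D2:**
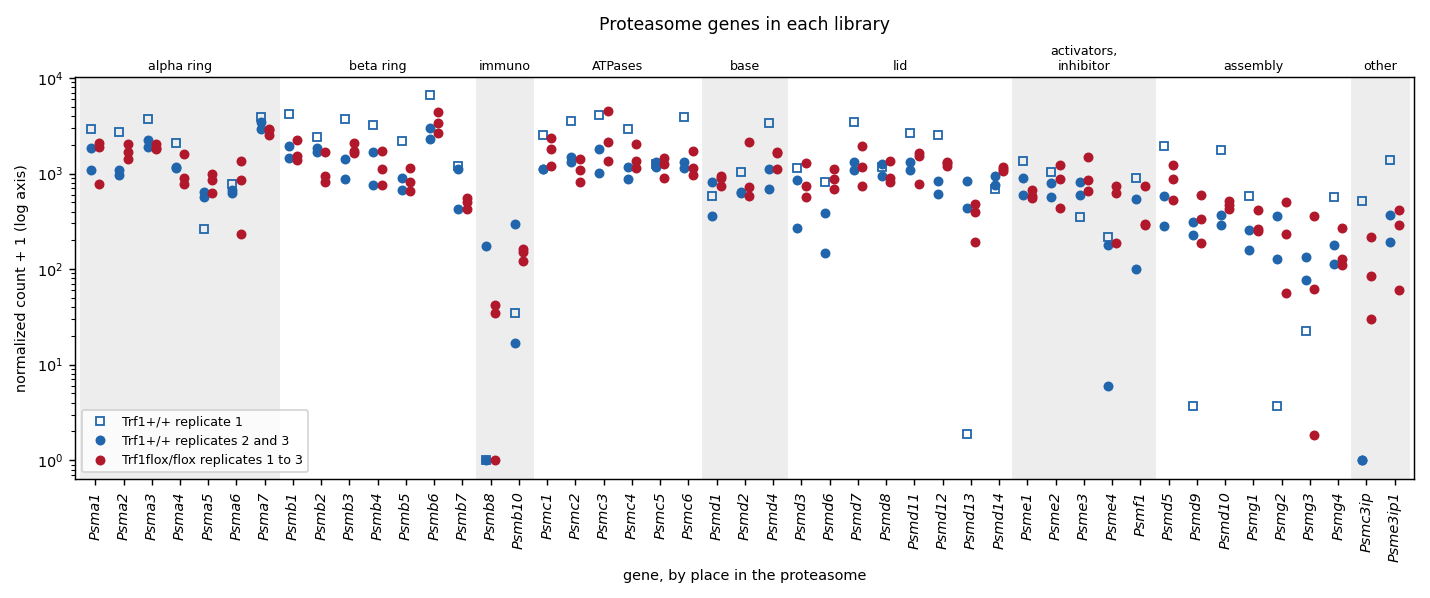
Normalized count plus 1 (log axis) of each of the 47 members in each library, ordered by place in the proteasome; open squares are the library labelled Trf1+/+ replicate 1, blue circles Trf1+/+ replicates 2 and 3, red circles the Trf1flox/flox libraries. Core and ATPase genes lie in a band above most assembly chaperones (counts not corrected for length), and the open squares are the highest point for 28 members. Psmb8 lies lowest, and Psmb10 lies low beside Psmg3 and Psmc3ip.

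The alpha ring holds 7 subunits encoded by *Psma1* to *Psma7*, and all 7 were measured, each above the 75th percentile of genes by level per kilobase of exon. *Psma8*, a testis form, was not analysed here. Their median was 2745, 1167 and 1082 normalized counts across the Trf1+/+ libraries against 1429.7, 1338 and 2018 across the Trf1flox/flox libraries, with the highest in the library labelled Trf1+/+ replicate 1. Log2 fold changes ran from -0.44 to 0.83, 2 positive and 5 negative, with a median of -0.31. That median was negative under every scaling tried and -0.0048 without the library labelled Trf1+/+ replicate 1. *Psma7* (ENSMUSG00000027566, chr2:180036374-180042433, GRCm38) had the highest level of the ring per kilobase. It measured 3903, 3472 and 2903 normalized counts across the Trf1+/+ libraries against 2889, 2520.1 and 2849 across the Trf1flox/flox libraries, or 3380.0 ± 550.3 per kilobase (SD, n = 6). The groups did not overlap, but the closest pair of libraries, Trf1+/+ replicate 3 and Trf1flox/flox replicate 1, were nearly equal. Its log2 fold change was -0.31 with a standard error of 0.41. *Psma7* was the only member lower without overlap, where 3.33% of all tested genes were. *Psma5* (ENSMUSG00000068749, chr3:108256926-108279974) had the lowest level of the ring per kilobase, 528 ± 202, with 261, 563 and 634 across the Trf1+/+ libraries against 632, 989 and 846 across the Trf1flox/flox libraries. Its lowest value was in the library labelled Trf1+/+ replicate 1, and the other 5 libraries lay between 563 and 989. Its log2 fold change of 0.83 (limma, standard error 0.67, unadjusted p = 0.236) was the highest of the ring. *Psma5* overlaps 1700010K24Rik and *Psma4* overlaps AY074887, and the libraries do not keep the strand, so reads of the overlapping parts cannot be told apart. The other 5, *Psma1* to *Psma4* and *Psma6*, ranged from 235 to 3704 normalized counts over the libraries, with overlapping groups for each gene and log2 fold changes between -0.44 and 0.25.

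The beta ring was measured by *Psmb1* to *Psmb7*, all 7 above the 75th percentile by level per kilobase. Its median was 3217, 1660.4 and 1105 normalized counts across the Trf1+/+ libraries against 805, 1539.8 and 1684 across the Trf1flox/flox libraries. Of the 7 log2 fold changes 6 were negative, with a median of -0.44 and a range from -0.85 to 0.12. The median was negative under every scaling tried and 0.0021 without the library labelled Trf1+/+ replicate 1. *Psmb2* (ENSMUSG00000028837, chr4:126677630-126709714), a structural subunit, had 2417, 1668 and 1858 normalized counts across the Trf1+/+ libraries against 805, 938 and 1684 across the Trf1flox/flox libraries. Its highest Trf1flox/flox value lay above the lowest Trf1+/+ value, so the groups overlapped by 1 library on each side. Its log2 fold change was -0.85 (limma, standard error 0.51, unadjusted p = 0.122), the most negative of the ring. The mean was 1981 ± 389.5 in Trf1+/+ and 1142 ± 474 in Trf1flox/flox libraries (SD, n = 3). The other structural subunits, *Psmb1*, *Psmb3* and *Psmb4*, ranged from 749 to 4146 normalized counts over the libraries, with overlapping groups for each gene and log2 fold changes between -0.51 and 0.12.

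The 3 catalytic subunits differed in level. *Psmb6* (ENSMUSG00000018286, chr11:70525367-70527858) had 6609, 3001 and 2268 normalized counts across the Trf1+/+ libraries against 2675, 4387 and 3398 across the Trf1flox/flox libraries. At 4665 ± 1990.2 per kilobase (SD, n = 6) it was the highest of all members. *Psmb5* (ENSMUSG00000022193, chr14:54614119-54618022) had 2204, 892 and 674 (Trf1+/+) against 658, 1146 and 814 (Trf1flox/flox), or 1184 ± 651 per kilobase. For both genes the library labelled Trf1+/+ replicate 1 was the highest and the other 5 libraries were mixed. *Psmb7* (ENSMUSG00000026750, chr2:38588036-38644087) was the lowest of the beta ring per kilobase, with 1210.5, 427 and 1105 across the Trf1+/+ libraries against 508, 419.6 and 559 across the Trf1flox/flox libraries, or 607 ± 307 per kilobase. Trf1+/+ replicate 2 lay among the Trf1flox/flox libraries, and the other two Trf1+/+ libraries lay above them. Per kilobase, *Psmb6* exceeded *Psmb5* in 6 of 6 libraries, and *Psmb5* exceeded *Psmb7* in 5 of 6, the exception being Trf1+/+ replicate 3. Log2 fold changes were -0.06 for *Psmb6*, -0.37 for *Psmb5* and -0.75 for *Psmb7*, with standard errors of 0.49, 0.62 and 0.67. The first of these turned positive with upper quartile scaling. *Psmb7* overlaps *Nek6* and *Psmb5* overlaps *Mir686*.

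The immunoproteasome genes had the lowest levels of all groups of the proteasome. Of 4 genes on this list, *Psmb8* and *Psmb10* were listed, and *Psmb9* and the thymus gene *Psmb11* were not analysed here. *Psmb8* (ENSMUSG00000024338, chr17:34197721-34201454), the replacement for *Psmb5*, had 0, 173 and 0 normalized counts across the Trf1+/+ libraries against 33.5, 0 and 40.7 across the Trf1flox/flox libraries. It was listed at 0 in 3 of 6 libraries, 2 of them Trf1+/+, where 3 reads would be 2.67 to 3.28 normalized counts. That floor covers counting error only, since the reads carry no molecular identifiers. *Psmb10* (ENSMUSG00000031897, chr8:105935735-105938444), the replacement for *Psmb7*, had 33.8, 292 and 15.8 across the Trf1+/+ libraries against 120.3, 149.7 and 159.9 across the Trf1flox/flox libraries. The Trf1flox/flox values were close together and lay between the highest Trf1+/+ value, in replicate 2, and the other two. Per kilobase *Psmb10* lay at 98.1 ± 76.3 and *Psmb8* at 25.3 ± 41.3 (SD, n = 6), the 63.3rd and 31.8th percentile of all genes with a length, against a median percentile of 94.8 for the 14 genes of the constitutive core. The log2 fold change was 1.37 for *Psmb10* (standard error 1.74) and 1.02 for *Psmb8* (standard error 2.38), and the sign of *Psmb8* was negative with edgeR and DESeq2. For *Psmb10* these gave 0.28 and 0.33, and limma gave 0.50 without Trf1+/+ replicate 3 and 2.57 without Trf1+/+ replicate 2.

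Within each library the replacements were set against the subunits they replace. *Psmb10* stood at 2.80%, 68.5% and 1.43% of *Psmb7* in the Trf1+/+ and 23.7%, 35.7% and 28.6% in the Trf1flox/flox libraries. The log2 ratio, after adding 1 to both, was -3.90 ± 2.95 in Trf1+/+ and -1.78 ± 0.29 in Trf1flox/flox libraries (SD, n = 3). The difference of 2.12 had an exact two-sided permutation p of 0.4 (0.8 adjusted over the 2 pairs). It was 1.05 without Trf1+/+ replicate 3 and 3.80 without Trf1+/+ replicate 2. *Psmb8* stood at 0%, 19.4% and 0% of *Psmb5* in the Trf1+/+ and 5.09%, 0% and 5.0% in the Trf1flox/flox libraries. Its log2 ratio was -7.62 ± 4.64 in Trf1+/+ and -6.24 ± 3.40 in Trf1flox/flox libraries (SD, n = 3). The difference of 1.38 had an exact two-sided permutation p of 0.9 (0.9 adjusted over the 2 pairs), and leaving out the library labelled Trf1+/+ replicate 1 gave -0.36. Where *Psmb8* was at 0 the added constant set this ratio, and the difference was 1.71 after adding 0.5 and 0.46 after adding 10. With 3 libraries against 3 the smallest p is 0.1. Both ratios were highest in Trf1+/+ replicate 2. Of 10 leukocyte markers, *Cd74*, *H2-Aa* and *Lyz2* were listed and *Ptprc* and the other 6 were not analysed here. The sums of the 3 were 317, 1537 and 0.985 normalized counts across the Trf1+/+ libraries against 0, 77.6 and 2710 across the Trf1flox/flox libraries, and their part in the ratios was not tested. *Psmb8* also overlaps the antisense gene *Gm20496*.

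**Figure D3:**
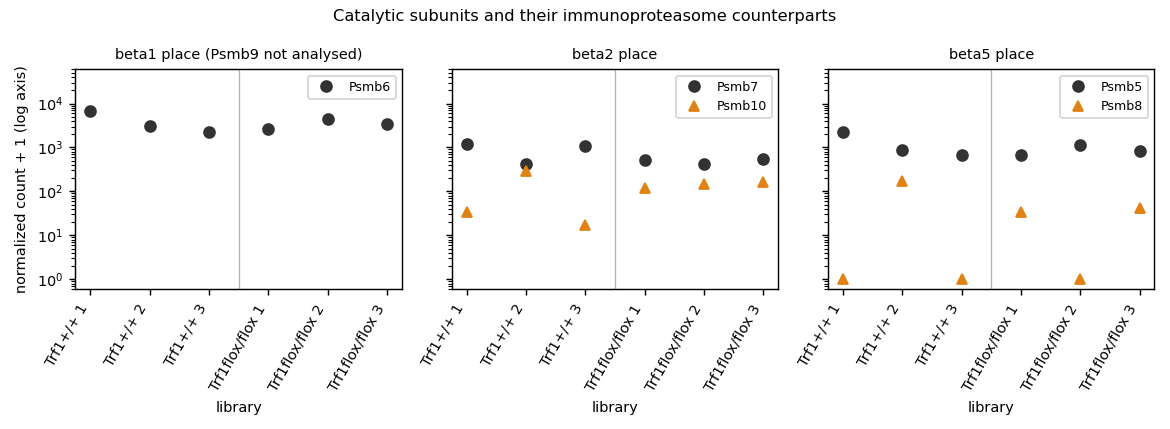
Normalized count plus 1 (log axis) of the catalytic subunits (circles) and the immunoproteasome subunits that replace them (triangles) in each library, 1 panel per place in the beta ring. Psmb10 comes close to Psmb7 in Trf1+/+ replicate 2 (68.5%), and Psmb8 is at 0 in 3 of the 6 libraries.

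The 6 ATPases that form the unfolding ring were measured by *Psmc1* to *Psmc6*. Their median was 3207, 1167 and 1204 normalized counts across the Trf1+/+ libraries against 1198, 1888 and 1346 across the Trf1flox/flox libraries, and their median percentile per kilobase was 93.7. Log2 fold changes were positive for 3 and negative for 3, with a median of -0.03 that was 0.15 with upper quartile scaling. *Psmc3* (ENSMUSG00000002102, chr2:91054009-91066369) had the highest level per kilobase of the ATPases, 1516 ± 895, with 4137, 1809.6 and 1001 across the Trf1+/+ libraries against 4462, 2132 and 1343 across the Trf1flox/flox libraries. Each genotype held 1 library far above its other two, and the groups overlapped over nearly their whole range. *Psmc5* (ENSMUSG00000020708, chr11:106256154-106263120) had the lowest mean count (not corrected for length) and was the most even ATPase gene, with 1249.7, 1158 and 1330.2 (Trf1+/+) against 1243, 888 and 1449 (Trf1flox/flox). Its log2 fold change of -0.09 had a 95% interval of -1.19 to 1.02. *Psmc2* (ENSMUSG00000028932, chr5:21785283-21803787) had 3527, 1482 and 1329 across the Trf1+/+ libraries against 823, 1098 and 1422 across the Trf1flox/flox libraries. The value in the library labelled Trf1+/+ replicate 1 was the highest, and Trf1flox/flox replicate 3 lay between the other two Trf1+/+ libraries. Its log2 fold change was -0.81 (limma, standard error 0.55, unadjusted p = 0.167). *Psmc3* overlaps *Slc39a13*. The other ATPase genes, *Psmc1*, *Psmc4* and *Psmc6*, ranged from 874 to 3910.2 normalized counts over the libraries, with overlapping groups for each gene and log2 fold changes between -0.54 and 0.24.

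The rest of the base comprises *Psmd1* and *Psmd2*, large scaffold subunits, and *Psmd4*, a ubiquitin receptor. All 3 log2 fold changes were positive, with a median of 0.39 that was positive under every scaling tried and -0.01 without Trf1flox/flox replicate 2. *Psmd4* (ENSMUSG00000005625, chr3:95032694-95042614) had the highest level of the 3 per kilobase, with 3398, 1100.3 and 694 normalized counts across the Trf1+/+ libraries against 1663, 1649 and 1118 across the Trf1flox/flox libraries. *Psmd1* (ENSMUSG00000026229, chr1:86064387-86139151) had the lowest, with 577, 360.4 and 809 (Trf1+/+) against 903, 931 and 731 (Trf1flox/flox). Trf1+/+ replicate 3 lay among the Trf1flox/flox values of *Psmd1*, and the other two Trf1+/+ libraries lay below them. Log2 fold changes were 0.62 for *Psmd1* (standard error 0.62) and 0.08 for *Psmd4* (standard error 0.62), the latter negative with edgeR and DESeq2. *Psmd1* overlaps *Htr2b* and *Gm21972*. *Psmd2* had 1029.7, 618 and 633 across the Trf1+/+ libraries against 729, 2126 and 584 across the Trf1flox/flox libraries, with overlapping groups and a log2 fold change of 0.39.

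The lid was measured by 8 genes, all above the 75th percentile by level per kilobase. Their median was 1146, 907 and 795 normalized counts across the Trf1+/+ libraries against 823, 1191 and 994 across the Trf1flox/flox libraries. Log2 fold changes ran from -0.51 to 1.91, 5 positive and 3 negative, with a median of 0.28 that was -0.03 with edgeR and -0.08 with DESeq2. *Psmd14* (ENSMUSG00000026914, chr2:61711694-61800376), the deubiquitinase that removes ubiquitin chains as substrates enter, had 683, 951 and 751 across the Trf1+/+ libraries against 1060.3, 1173 and 1107 across the Trf1flox/flox libraries. Every Trf1flox/flox library lay above every Trf1+/+ library, with means of 795 ± 139 and 1113 ± 56.4 (SD, n = 3). *Psmd14* was the only member higher without overlap, where 5.35% of all tested genes were. Its log2 fold change was 0.50 (limma, standard error 0.54, unadjusted p = 0.372).

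*Psmd6* (ENSMUSG00000021737, chr14:14112174-14120984), a scaffold subunit of the lid, had 820.3, 387 and 146 normalized counts across the Trf1+/+ libraries against 690.0, 1111 and 880.0 across the Trf1flox/flox libraries. The library labelled Trf1+/+ replicate 1 lay among the Trf1flox/flox values, and the other two Trf1+/+ libraries lay below all of them. For *Psmd6* the log2 fold change was 1.29 (limma, standard error 0.77, unadjusted p = 0.12), and leaving out the library labelled Trf1+/+ replicate 1 gave 1.88 (limma, unadjusted p = 0.0186, adjusted p = 0.999), while leaving out Trf1+/+ replicate 3 gave 0.64. *Psmd7* (ENSMUSG00000039067, chr8:107580381-107588464), the partner of *Psmd14*, had the highest level of the lid per kilobase, 1022 ± 614, with 3425, 1317 and 1086 (Trf1+/+) against 745, 1949 and 1176 (Trf1flox/flox). *Psmd13* (ENSMUSG00000025487, chr7:140881968-140898643) had the lowest, 196 ± 142, with 0.891, 836 and 439 across the Trf1+/+ libraries against 479, 397 and 191 across the Trf1flox/flox libraries. The 1 read in the library labelled Trf1+/+ replicate 1 set its log2 fold change of 1.91 (standard error 1.98), which was -0.87 without that library. *Psmd13* overlaps *Sirt3* and *Psmd3* overlaps *Gm12356*. The other lid genes, *Psmd3*, *Psmd8*, *Psmd11* and *Psmd12*, ranged from 268 to 2631 normalized counts over the libraries, with overlapping groups for each gene and log2 fold changes between -0.31 and 0.35.

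**Figure D4:**
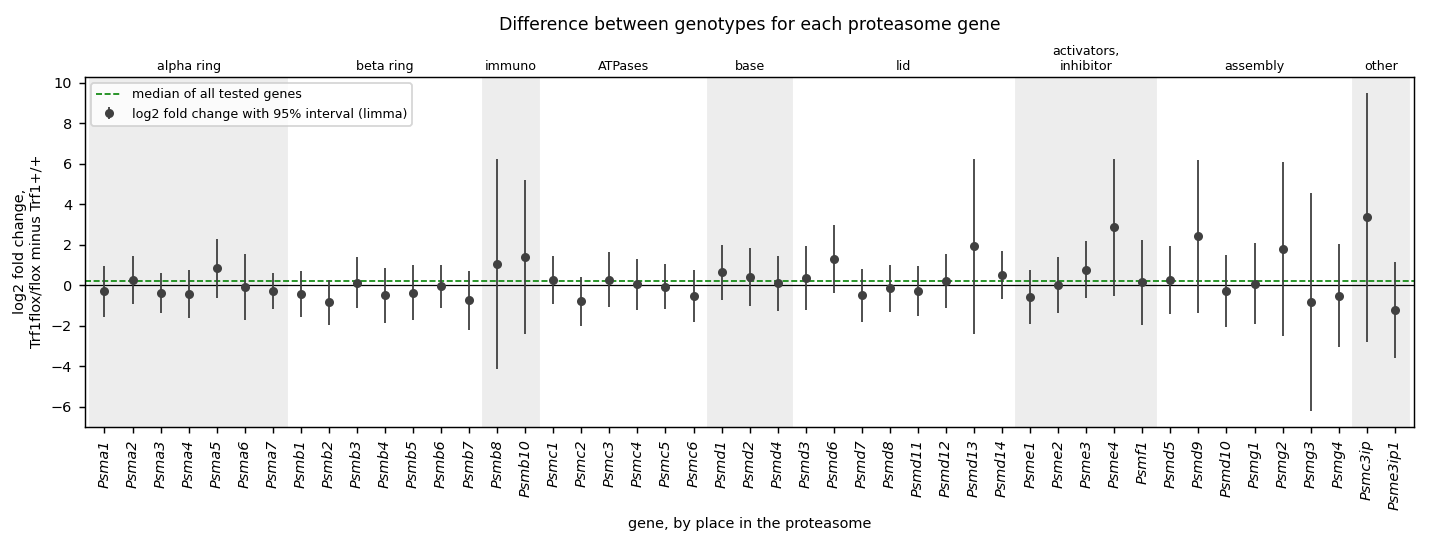
Log2 fold change (Trf1flox/flox minus Trf1+/+, log2(normalized count + 1) scale) of each member with its 95% interval from limma, ordered by place in the proteasome; the dashed line is the median of all tested genes, 0.20. Every interval spans 0, and the widest belong to Psmb8, Psmd13, Psmg3 and Psmc3ip.

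Activators open the core in place of the 19S particle. *Psme1* and *Psme2* encode the subunits of PA28αβ, an interferon-γ-induced cap, *Psme3* encodes the nuclear PA28γ and *Psme4* the large activator PA200, while *Psmf1* encodes the inhibitor PI31. *Psme1* (ENSMUSG00000022216, chr14:55578123-55581529) had 1357, 902 and 593 normalized counts across the Trf1+/+ libraries against 577, 667 and 557 across the Trf1flox/flox libraries. *Psme2* (ENSMUSG00000079197, chr14:55587441-55591113) had 1026, 803 and 562 (Trf1+/+) against 435, 878 and 1214 (Trf1flox/flox). Both partners had their Trf1+/+ maximum in replicate 1, and in the Trf1flox/flox libraries *Psme1* was even while *Psme2* varied. Their log2 fold changes were -0.59 (95% interval -1.92 to 0.74) and 0.00068 (95% interval -1.39 to 1.39). *Psme3* (ENSMUSG00000078652, chr11:101316213-101323537) had 352, 599 and 810.0 across the Trf1+/+ libraries against 858, 1479 and 659 across the Trf1flox/flox libraries. Its lowest value was in the library labelled Trf1+/+ replicate 1, and Trf1+/+ replicate 3 lay between the Trf1flox/flox values. *Psmf1* (ENSMUSG00000032869, chr2:151715812-151744186) had 899, 535 and 98.5 (Trf1+/+) against 297, 743 and 288 (Trf1flox/flox), with overlapping groups and a log2 fold change of 0.14 that was negative with edgeR and DESeq2. *Psme1* overlaps *Emc9*. *Psme2* has a near-identical retrogene copy, *Psme2b*, and how reads that match both were counted is not stated.

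*Psme4* (ENSMUSG00000040850, chr11:30771726-30880361) had the smallest unadjusted p of all members. It measured 218, 4.97 and 176 normalized counts across the Trf1+/+ libraries against 628, 187 and 732 across the Trf1flox/flox libraries. Trf1flox/flox replicates 1 and 3 lay above all Trf1+/+ libraries, Trf1flox/flox replicate 2 lay among them, and Trf1+/+ replicate 2 was close to the floor. The means were 133 ± 113 and 516 ± 289 (SD, n = 3). PA200 RNA had a log2 fold change of 2.85 (limma, standard error 1.55, unadjusted p = 0.0907, adjusted p = 0.970). Without the library labelled Trf1+/+ replicate 1 it was 3.76 (limma, unadjusted p = 0.0396, adjusted p = 0.999), and without Trf1+/+ replicate 2, the library close to the floor, it was 1.17. It was 2.08 with edgeR and 1.98 with DESeq2. In the fit without the library labelled Trf1+/+ replicate 1, *Psme4*, *Psmd6* and *Psmc3ip* were the 3 members at an unadjusted p under 0.05, all higher in Trf1flox/flox libraries, where 2.62% of all tested genes were, and 0 were called.

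Assembly chaperones bind subunits on the way to the finished particle and leave it afterwards. *Psmg1* to *Psmg4* assist the core, and *Psmd5*, *Psmd9* and *Psmd10* the base. Their median percentile per kilobase was 77.7 and their median SD within groups 1.09 on the log2 scale, against 94.8 and 0.61 for the constitutive core and 47.6 and 2.62 for the immunoproteasome genes. *Psmd5* (ENSMUSG00000026869, chr2:34849734-34874968) had the highest mean count, not corrected for length, with 1946, 587 and 279.8 normalized counts across the Trf1+/+ libraries against 1239, 525 and 868 across the Trf1flox/flox libraries. *Psmg3* (ENSMUSG00000029551, chr5:139823592-139826885) had the lowest mean count, with 21.4, 132 and 75.9 (Trf1+/+) against 0.859, 354 and 60.6 (Trf1flox/flox). The single read in Trf1flox/flox replicate 1 set the sign of the log2 fold change of *Psmg3*, -0.83, which was 1.28 without that library. *Psmd9* (ENSMUSG00000029440, chr5:123169413-123250131) had 2.67, 309 and 227 across the Trf1+/+ libraries against 188, 598 and 336 across the Trf1flox/flox libraries. It was at 3 reads in the library labelled Trf1+/+ replicate 1, and the other 5 libraries overlapped. On the log2 scale the difference was 2.40 (limma, standard error 1.73, unadjusted p = 0.191), but 0.34 without that library, 0.97 with edgeR and 1.05 with DESeq2. Over the group 4 log2 fold changes were positive and 3 negative, with a median of 0.07 that was -0.07 with DESeq2. *Psmd9* overlaps *Gm26745* and *Psmg3* overlaps *Gm26938*. The other chaperones, *Psmg1*, *Psmg2*, *Psmg4* and *Psmd10*, ranged from 2.67 to 1744 normalized counts over the libraries, with overlapping groups for each gene and log2 fold changes between -0.52 and 1.77.

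Most groups of subunits had a lower SD between libraries than a typical gene. The median SD of log2 values within groups was 0.61 for the constitutive core, 0.66 for the ATPases, 0.78 for the lid and 0.75 for all members, against 2.17 for all tested genes. Since SD falls with level, each gene was set beside limma's trend at its own level. The SD of 26 of the 47 members (55.3%) lay below the trend, against 48.5% of all tested genes, so the evenness of the members was close to that of other genes of their level. The lowest SD values were those of *Psma7* (0.17) and *Psmd14* (0.18), which are also the members whose groups do not overlap. The highest among subunits was that of *Psmb8* (3.72), followed by *Psmd13* (3.45). By level per kilobase, 39 of the 46 members with a length were above the 75th percentile of genes. The exceptions with a role at the proteasome were *Psmb8*, *Psmb10*, *Psme4*, *Psmf1*, *Psmd9* and *Psmg3*.

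**Figure D5:**
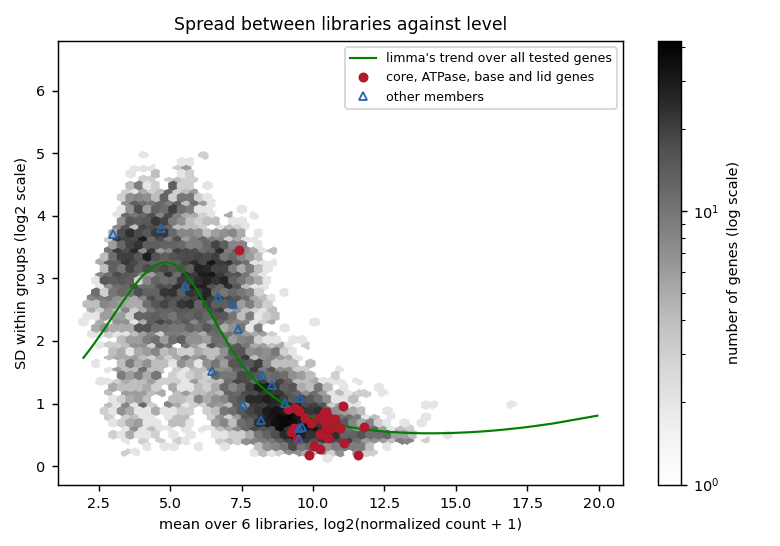
SD of log2 values within groups against the mean log2(normalized count + 1) over 6 libraries, with all tested genes as grey hexagons (shade: number of genes, log scale), core, ATPase, base and lid genes as red circles, other members as blue triangles and limma's trend as a green line. Of the 47 members, 26 lie below the trend.

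The other two members are not proteasome genes. *Psmc3ip* (ENSMUSG00000019303, chr11:101091823-101095436), which overlaps *Mlx*, had 511, 0 and 0 normalized counts across the Trf1+/+ libraries against 84.2, 213 and 28.9 across the Trf1flox/flox libraries. It was highest in the library labelled Trf1+/+ replicate 1 and at 0 in the other two Trf1+/+ libraries. The log2 fold change was 3.35 (limma, standard error 2.81, unadjusted p = 0.257), it was 6.35 with the library labelled Trf1+/+ replicate 1 left out, and it was negative with edgeR (-0.52) and DESeq2 (-0.61). *Psme3ip1* had 1369, 365 and 190.2 (Trf1+/+) against 415, 60.1 and 289 (Trf1flox/flox), with overlapping groups and a log2 fold change of -1.23 (limma, standard error 1.08, unadjusted p = 0.278).

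Other genes of the pathway were taken from a list of 37, of which 34 were listed and 31 tested. limma, edgeR and DESeq2 each called 0 of the 31 at an adjusted p under 0.05. Their log2 fold changes were positive for 16 and negative for 15, and 1 had an unadjusted p under 0.05 in limma (0 in edgeR and 1 in DESeq2), where 1.03% of all tested genes were lower at that threshold in limma. This was *Usp14* (ENSMUSG00000047879, chr18:9993066-10045119), a deubiquitinase that trims chains on proteasome-bound substrates, with 1217, 688 and 429 normalized counts across the Trf1+/+ libraries against 88.5, 142 and 433 across the Trf1flox/flox libraries. Trf1flox/flox replicate 3 lay just above Trf1+/+ replicate 3, and the other two Trf1flox/flox libraries lay below all Trf1+/+ libraries. *Usp14* had a log2 fold change of -2.01 (limma, standard error 0.90, unadjusted p = 0.046, adjusted p = 0.970). It missed that threshold with no filter, with upper quartile scaling and in 4 of the 6 fits without 1 library, in which the log2 fold change ran from -2.65 to -1.51. *Uchl5*, the other deubiquitinase that docks at the base, had 2377, 732 and 132 (Trf1+/+) against 489.8, 1067 and 443 (Trf1flox/flox). *Adrm1*, the ubiquitin receptor that *Uchl5* binds, had 1741, 504 and 443 across the Trf1+/+ libraries against 670.2, 409.8 and 451 across the Trf1flox/flox libraries. *Pomp*, which chaperones the closing of the core, had 4339.5, 2521 and 1384 (Trf1+/+) against 1365, 1526 and 2394 (Trf1flox/flox). All 3 had overlapping groups, and all 3 were highest in the library labelled Trf1+/+ replicate 1.

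Of the regulators of subunit transcription, *Nfe2l1* (ENSMUSG00000038615, chr11:96817414-96829968) had 361, 505 and 352 normalized counts across the Trf1+/+ libraries against 711, 769 and 362 across the Trf1flox/flox libraries. *Ddi2*, the protease that cuts the *Nfe2l1* product into its active form, had 591, 209.6 and 51.2 (Trf1+/+) against 388, 282 and 197 (Trf1flox/flox). Both had overlapping groups, and the difference on the log2 scale was 0.54 for *Nfe2l1* (standard error 0.71) and 0.58 for *Ddi2* (standard error 1.13). For the peptides that the immunoproteasome makes, *B2m*, the shared light chain of class I molecules, had 667, 1593 and 847 across the Trf1+/+ libraries against 601, 1013 and 2036 across the Trf1flox/flox libraries, and *Tap1* was not analysed here. *B2m* was highest in Trf1flox/flox replicate 3, the library with the highest sum of leukocyte markers, and a link was not tested. That sum was mostly *Cd74* (2513 normalized counts), while *Lyz2* was at 0 in that library. The log2 fold change of *B2m* was 0.15 (standard error 0.63).

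Over all tested genes 55.9% of log2 fold changes were positive. By role, 5 of the 5 tested subunits and assembly factors outside the rule had negative log2 fold changes, with a median of -0.53. *Adrm1*, *Pomp*, *Ecpas* and *Txnl1* were highest in the library labelled Trf1+/+ replicate 1, and *Sem1* in Trf1+/+ replicate 2. Without the library labelled Trf1+/+ replicate 1 the value of *Adrm1* was 0.077. Of the 13 shuttles and extraction factors, which carry ubiquitinated proteins to the proteasome, 8 were positive and 5 negative. Of the 5 regulators of subunit transcription 4 were positive, of the 4 ubiquitin genes 1 was, and of the partners of the immunoproteasome 2 of 2 tested were. Among the positive genes, *Ngly1*, *Keap1*, *Faf2* and *Zfand5* had 0.891 normalized counts in the library labelled Trf1+/+ replicate 1, and *Akirin2* had 0. *Keap1* was positive although its mean was 82.2 in Trf1+/+ and 63.9 in Trf1flox/flox libraries. *Faf1*, which was negative, had 0 in Trf1flox/flox replicate 1. The groups did not overlap for 3 of the 31 genes, which are named after their values were seen. *Nploc4*, a cofactor of the segregase VCP, had 0, 95.3 and 117 normalized counts across the Trf1+/+ libraries against 149, 640.4 and 299.8 across the Trf1flox/flox libraries. *Ubqln1*, a shuttle, had 1178, 1355 and 1256 (Trf1+/+) against 366, 1116 and 726 (Trf1flox/flox). *Ube3c*, a ubiquitin ligase, had 778, 358 and 274 (Trf1+/+) against 199, 145 and 144 (Trf1flox/flox). One was higher and the other two lower in Trf1flox/flox libraries, where 5.35% and 3.33% of all tested genes were without overlap.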

How the data were processed

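RNA of 500 sorted cells per mouse was copied from poly(A) ends by template switching and amplified; the libraries do not keep the strand. Per the study's methods, reads were aligned to GRCm38 with TopHat2 2.0.10 (Bowtie 1.0.0, SAMtools 0.1.19) and counted on GENCODE genes with HTSeq 0.6.1. The submitters' notes also name FastQC 0.11.7 and DESeq2, and give the build as GRCm39; the table holds no coordinates. The authors deposited normalized counts, a signal in which the reads of a gene are divided by 1 size factor per library; 100% of the deposited values were whole multiples of 1 read within a relative tolerance of 0.001, and the reads were recovered. The filter asked for 10 or more normalized counts in 3 or more libraries. limma 3.58.1 (trend) was fitted to log2(normalized count + 1) of all 6 libraries, with Benjamini-Hochberg adjustment over 9966 genes and a threshold of 0.05. The added 1 shrinks the change of genes low throughout, but where single libraries were far below the rest (Psmd9, Psmb10, Psmd13, Psmb8, Psmc3ip) this scale gave larger values than edgeR and DESeq2, or the opposite sign. p-values rest on the spread between these 6 libraries, 1 per mouse, in limma moderated by the trend over all genes. Differences between mice and technical differences between libraries cannot be told apart. Depth was 10263382 to 12248797 reads on listed genes. Alternatives were pseudocounts of 0.5 and 10, no filter, upper quartile scaling, edgeR 4.0.16 (quasi-likelihood, TMM), DESeq2 1.42.0 and leaving out each library. The limma, edgeR and DESeq2 fits were tested on simulated data, which need not have the spread seen between these libraries. Levels per kilobase used the exon length of GENCODE vM21 (GRCm38), which matched 98.2% of listed symbols and gave all coordinates.

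The members and lists were chosen with earlier results of these data known. Values were printed for the catalytic subunits and their replacements, activators and inhibitor, the members of highest and lowest mean in each group, those whose groups did not overlap, the 10 of smallest unadjusted p, and fixed pathway genes with any at an unadjusted p under 0.05. The members without a value of their own in the text are in the plots. A further promoter motif is not reported here.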

Additional observations from a re-analysis of the deposited data

How the results depend on the processing

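Under all 12 alternatives 0 members were called, and the adjusted p of a member was never below 0.687 in limma, edgeR or DESeq2. DESeq2 gave none for Psmb8 and Psmb10. The median log2 fold change of the members lay between -0.32 (without Trf1+/+ replicate 3) and 0.20 (without Trf1+/+ replicate 1) when each library was left out. In the same fits the medians lay between -0.13 and 0.37 for the lid, -0.23 and 0.43 for activators and inhibitor, and, for the ratio of Psmb8 to Psmb5, the difference between -0.36 and 4.02 (1.05 and 3.80 for Psmb10 to Psmb7). The lid was at -0.027 with edgeR and -0.084 with DESeq2. Medians of the alpha ring stayed negative in every alternative, but only at -0.0048 without Trf1+/+ replicate 1. That of the beta ring was negative in all but the one without Trf1+/+ replicate 1. No paired analysis was possible because the labels and the columns number no animals across the genotypes.

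Of 35 named genes, 18 kept their sign throughout and 17 did not, and the cause was not tested. With edgeR the sign turned for Psmb8 (-1.24), Psmf1 (-0.17), Psmd4 (-0.14), Psmd13 (-0.35), Psmg3 (0.73), Psmc3ip (-0.52) and Uchl5 (-0.62). With DESeq2 it turned for Psmb8 (-1.22), Psmf1 (-0.18), Psmd4 (-0.20), Psmd13 (-0.27), Psmd5 (-0.067), Psmg3 (0.85), Psmc3ip (-0.61) and Uchl5 (-0.67). Upper quartile scaling turned Psmb6 (0.12) and Psmc5 (0.086), and a pseudocount of 10 turned Uchl5 (-0.015). With each library left out, log2 fold changes ran from -0.72 to 0.13 for Psmb5, -0.38 to 0.39 for Psmb6, -0.23 to 3.50 for Psmb8, -0.32 to 0.42 for Psme2, -0.80 to 0.79 for Psmf1, -0.23 to 0.80 for Psmc3, -0.24 to 0.11 for Psmc5 and -0.41 to 0.73 for Psmd4. They kept 1 sign but ran from 1.17 to 3.76 for Psme4, 0.64 to 1.88 for Psmd6, 0.34 to 3.54 for Psmd9, 0.50 to 2.57 for Psmb10, 0.44 to 1.07 for Psma5, 0.43 to 1.03 for Psme3, 0.31 to 0.90 for Psmd1, -1.23 to -0.48 for Psmb7, -1.07 to -0.37 for Psmc2, -0.89 to -0.29 for Psme1 and -1.86 to -0.40 for Psme3ip1. Those of the others ran from -0.87 to 3.53 for Psmd13, -0.37 to 1.02 for Psmd5, -2.51 to 1.28 for Psmg3, -0.91 to 0.077 for Adrm1, -1.10 to 0.98 for Uchl5, -0.34 to 1.41 for Ddi2, -0.31 to 0.57 for B2m and -3.38 to 0.15 for Terf1.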
